A study of Mus musculus with 6 samples.

Results

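The genes described here encode the proteins of the cytosolic ribosome. They were taken as the protein-coding mouse genes whose symbol begins with Rpl or Rps and a digit, together with Rplp0, Rplp1, Rplp2 and Rpsa, without the S6 kinases and without pseudogenes. This rule gave 90 genes of the 55414 identifiers in the count table. Read from the symbol alone, 54 were counted to the large and 35 to the small subunit. The last one is Rps19bp1, a protein that binds Rps19 and is no part of the ribosome. Whether the protein of each related gene, such as Rpl7l1 or Rps23rg1, sits in the ribosome was not examined. The libraries were made from FACS-purified Paneth cells of the small intestine of WT mice, which the study's methods give as C57BL/6J. For 7 weeks these mice ate either standard chow (3 libraries) or zinc depleted chow (3 libraries). All mice, those on standard chow included, had received TNF 3 hours earlier. Any effect of zinc depletion described here is therefore one seen on top of TNF. The design text speaks of 4 biological replicates per group, while 3 libraries per group were analysed here.

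Ribosomal proteins surround and stabilize the ribosomal RNA and are needed in equal numbers, and their mRNAs are usually regulated together. Many of these mRNAs begin with a C followed by an uninterrupted run of pyrimidines, the 5′ terminal oligopyrimidine tract, through which mTOR and Larp1 set how well they are translated. Paneth cells fill secretory granules with antimicrobial peptides and have a large rough endoplasmic reticulum. Several ribosomal proteins hold a zinc ion between pairs of cysteines.

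The 30 bases around the RefSeq start (20 before it and 10 after it) are given for both members of the pairs Rps27 and Rps27l, and Rpl22 and Rpl22l1, to which the results return. Those of Rps6, Rpl35 and Rpl28 are given as examples of the tract, picked for their sequence and outside the rule for named genes. The windows are on GRCm39 and read 5′ to 3′ on the strand of the gene. Capitals mark a C at the start with at least 4 pyrimidines after it, as far as the window reaches.
Rps6, target of the S6 kinases, chr4:86775595-86775624, minus strand: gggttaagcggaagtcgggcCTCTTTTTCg
Rpl35, chr2:38895134-38895163, minus strand: gaagtcggccccgccctttcCTCTTTCTCT
Rpl28, chr7:4795944-4795973, plus strand: tcgtcccgcctctcgtgtctCTCTTTCCgt
Rps27, chr3:90120946-90120975, minus strand: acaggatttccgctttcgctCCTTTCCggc
Rps27l, first listed start, chr9:66853348-66853377, plus strand: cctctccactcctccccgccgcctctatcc
Rpl22, the listed start inside its GENCODE gene, chr4:152410163-152410192, plus strand: ccgacttcgccctgggaaaagcaatagctg
Rpl22l1, chr3:28859637-28859666, plus strand: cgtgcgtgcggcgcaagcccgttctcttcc
A tract began exactly at the annotated start in Rps6, Rpl35, Rpl28 and Rps27, and not in Rps27l, Rpl22 or Rpl22l1. In Rpl22l1 and Rps27l the start base is a G, and a run of pyrimidines begins at the next base.

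RefSeq promoters (250 bases before to 50 after the start) were listed for 67 of the 90 genes. A gene with several listed starts was counted if any of them matched. A C at the start with at least 4 pyrimidines after it was found in 14 of them (20.9%) and in 2.84% of all 15319 genes with a listed promoter. A C with at least 6 pyrimidines after it, beginning within 20 bases of the start, was found in 38 (56.7%) and in 25.1% of all genes. The core of the ETS site, CCGGAAG on either strand, was in 26 (38.8%) and in 14.2% of all genes. The TATA box TATAAA was in 7 (10.4%) and in 1966 of the 15319, and the E-box CACGTG in 6 (8.96%) and in 9.62%. The core of the metal response element, TGCGCNC or TGCACNC, through which the zinc sensor Mtf1 acts, was in 18 (26.9%) and in 34.7% of all genes. All motifs other than the pyrimidine runs were searched on both strands, and a match is a description of the sequence. The 12 tested genes with a tract at the start had a median log2 fold change of 0.79 with TMM scaling and the other 47 with a listed promoter one of 0.66. With total counts these medians were -0.31 and -0.42. Only a run beginning exactly at a listed start counts as a tract here. The 47 therefore include genes with a run close to it, such as Rpl22l1 and Rps27l.

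The libraries held 6139397 to 12772373 counts. All 10 Paneth cell markers were detected in these sorted cells, with summed levels of 518347 to 650859 CPM, where CPM is a count divided by the library's total and put on a common scale. Alpha-defensins and other Paneth cell products made up 67.5% to 80.7% of counts on standard chow and 72.5% to 86.5% on zinc depleted chow. A small rise or fall in these products therefore moves the share left to all other genes. The TMM factors, which edgeR sets so that most genes do not change, differed by 3.77-fold between libraries. Rn18s-rs5, an 18S ribosomal RNA locus, took 1.27% to 2.91% of counts on standard and 0.522% to 0.884% on zinc depleted chow, without overlap. Summed markers of enterocytes, enteroendocrine cells, stem cells and proliferation were also lower on zinc depleted chow without overlap. All 8 stem cell markers, for example, were detected, and they summed to 1255 to 3937 CPM against 529 to 739 CPM. The summed markers of Paneth, goblet, tuft and immune cells overlapped. On this scale of total counts, 10.3% of the 9749 genes tested below were also lower without overlap.

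The 90 genes together took 2.91%, 2.12% and 1.78% of all counts on standard chow (replicates 1 to 3) and 1.18%, 1.88% and 1.99% on zinc depleted chow. The means were 2.27% ± 0.580 and 1.69% ± 0.441 (SD, n = 3 each), and the groups overlapped. The lowest share was that of zinc depleted replicate 1, and both other zinc depleted libraries lay above standard replicate 3. Each share rests on 117830 to 254489 counts, so that its Wilson 95% interval is narrow (1.17% to 1.19% in the lowest library) and the spread is one between libraries, not of counting. Among counts outside the Paneth cell products, the order of the means turned. The genes took 8.95%, 7.22% and 9.22% there on standard chow and 4.29%, 12.1% and 14.7% on zinc depleted chow, with means of 8.47% ± 1.09 and 10.4% ± 5.42 (SD, n = 3 each). On this scale zinc depleted replicate 1 lay below every standard library and the other zinc depleted libraries above every one. A lower level per cell and fewer cells with the RNA cannot be told apart in such bulk samples.

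**Figure D1:**
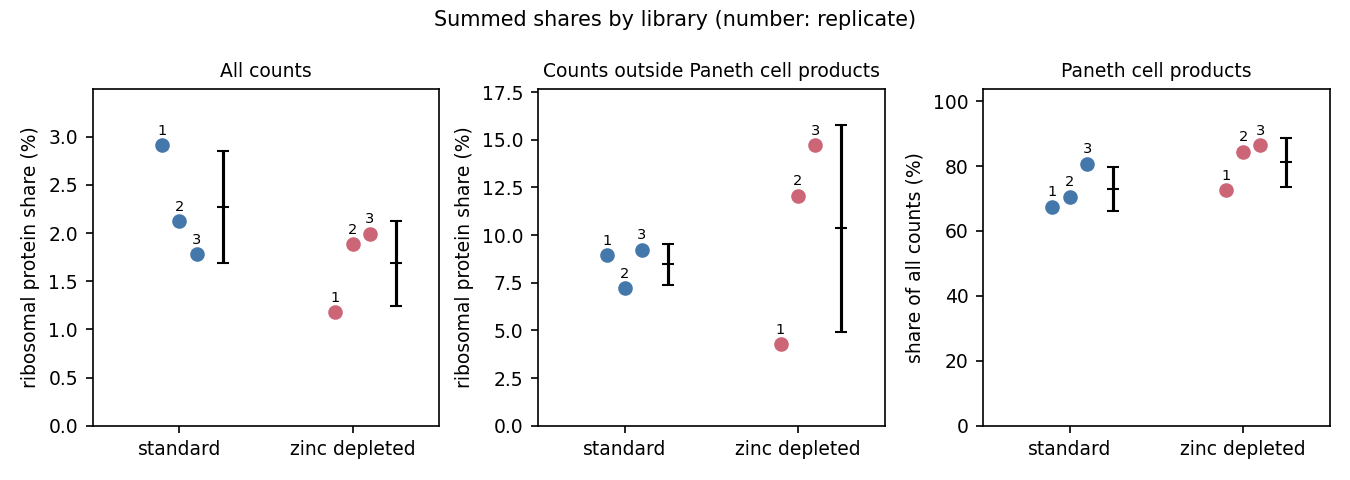
Summed share of the ribosomal protein genes in all counts (left, percent), in counts outside the alpha-defensins and other Paneth cell products (middle, percent), and the share of those products (right, percent). Each point is 1 library with its replicate number, and the bars give the mean ± SD of 3 libraries. The mean on zinc depleted chow is the lower one on the left (1.69% against 2.27%) and the higher one in the middle (10.4% against 8.47%), where replicate 1 stands apart.

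Ranks within a library need no scaling between libraries. The median gene of the 80 that could be tested stood at the 98.7th, 98.4th and 98.6th percentile of the 9749 tested genes in the standard diet libraries and at the 96.1st, 98.8th and 98.9th in the zinc depleted libraries. Ribosomal protein genes were thus among the most counted genes of each library, again with the lowest value in zinc depleted replicate 1. By mean CPM, 26 of them were among the 100 most counted genes.

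Of the 90 genes, 80 passed the filter on low counts. The remaining 10 were Rpl3l, Rpl10l, Rpl24, Rpl27rt, Rpl35rt, Rpl36al, Rpl39l, Rps10, Rps23rg1 and Rps27rt. Rpl3l, the muscle paralog of Rpl3, had no counts in any library, which allows up to 0.235 to 0.489 CPM depending on the library. Rpl24 and Rps10, core proteins of the ribosome, were listed with only 1 and 8 counts over all 6 libraries. Both overlap a longer gene annotated on the same strand (Gm28037 and Gm49804), as do Rpl36al with 28 counts (Gm49383) and Rpl13a with 597 (Gm45713), and these longer genes held 0 counts. Levels of these 4 genes are therefore uncertain, and how reads in such overlaps were counted is not given in the sources used here. In 26 of the 90, fewer than 50% of the 75-base stretches of the transcript are found in no other annotated gene's transcripts. Part of their reads can therefore also match pseudogenes or paralogs. Ribosomal protein pseudogenes with -ps in their symbol held 0.163% to 0.199% as many counts as the genes themselves. Pseudogenes under other names were not summed, so the counts of all pseudogenes are not known from this.

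Per kilobase of transcript, the 5 highest mean levels were those of Rps12 (1231 CPM per kb), Rps24 (923), Rplp1 (909), Rplp0 (756) and Rpl41 (672). Rplp0 forms the base of the stalk that recruits elongation factors. It was counted at 1559, 1259 and 880 CPM on standard and 725, 826 and 940 CPM on zinc depleted chow. Rplp1, an acidic protein of the same stalk, had 834, 531 and 435 CPM against 279, 438 and 465 CPM, and Rplp2, its partner, 447, 308 and 257 CPM against 174, 267 and 243 CPM. Rpsa, a protein of the small subunit also known as the laminin receptor, had 784, 589 and 538 CPM against 329, 427 and 543 CPM. In each of these 4 genes the groups overlapped, standard replicate 1 was the highest and zinc depleted replicate 1 the lowest. Rpl41, the shortest with 75 coding bases, had 473, 354 and 358 CPM against 235, 382 and 390 CPM. Rps19bp1, which is no ribosomal protein, was far lower, at 7.63, 7.00 and 7.42 CPM against 5.30, 4.17 and 5.64 CPM, without overlap. Levels per kilobase depend on the transcript model chosen, and several of these genes have models with long untranslated ends. For Rps12, the highest, only 13.1% of the 75-base stretches are found in no other gene's transcripts.

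Whether zinc depletion changed single genes of the set was tested with the edgeR quasi-likelihood test. None of the 80 had a Benjamini-Hochberg adjusted p under 0.05 (the smallest was 0.681), and neither had any of the 9749 genes (0%). DESeq2 called 9 genes of 9500 (0.0947%), none of them a ribosomal protein gene, and limma-voom called none. At an unadjusted p under 0.05, edgeR gave 1 of the 80 (Rps27l, higher), where 6.62% of all tested genes passed, 2.58% higher and 4.03% lower. Limma-voom gave 1 of the 80 at that level against 6.41% of all genes in both directions together. DESeq2 gave 9 of the 80, all of them higher, against 7.81% of the same 9749 genes in both directions together. With edgeR and total counts only, 4 of the 80 passed it, all lower, against 6% of all tested genes lower and 0.0821% higher.

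Most genes of the set lay on the same side of 0, but which side depended on the scaling. With TMM scaling, 76 of 80 had a positive log2 fold change on zinc depleted chow, with a median of 0.69, while the median over all 9749 tested genes was 0.00 and 4876 of them were positive. With total counts only, 74 of the same 80 were negative, with a median of -0.41, and the median over all tested genes was -0.67 with 13.1% positive. Relative to the median of all genes the set thus lay 0.69 higher on the log2 scale under the first and 0.26 higher under the second. These medians of all genes are not matched to the set for coding length, which is taken up below. The sizes were uneven between the subunits under both, with a median of 0.60 over 47 large and 0.81 over 32 small subunit genes with TMM and of -0.49 and -0.31 with total counts. Large over small subunit counts were 1.19, 1.26 and 1.16 on standard and 1.27, 1.06 and 1.00 on zinc depleted chow, which overlapped.

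Leaving out zinc depleted replicate 1, the library with the lowest share, raised the median to 1.16 with TMM. Then 67 of 80 had an unadjusted p under 0.05, all of them higher, where 24.2% of all tested genes passed and 12.3% did so in that direction. The smallest adjusted p of a ribosomal protein gene was then still 0.117. Leaving out zinc depleted replicate 3 lowered the median to 0.22. The size of the shift thus rested on single libraries. On the total count scale the groups did not overlap in 19 of the 80 genes, all lower on zinc depleted chow, where 10.3% of all tested genes were lower without overlap and 0.554% higher. With TMM scaling they overlapped in all 80, while 3.51% of tested genes were higher and 6.58% lower without overlap. Stem cell and proliferation markers were lower on zinc depleted chow too, as given above, and their part in these levels was not tested.

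**Figure D2:**
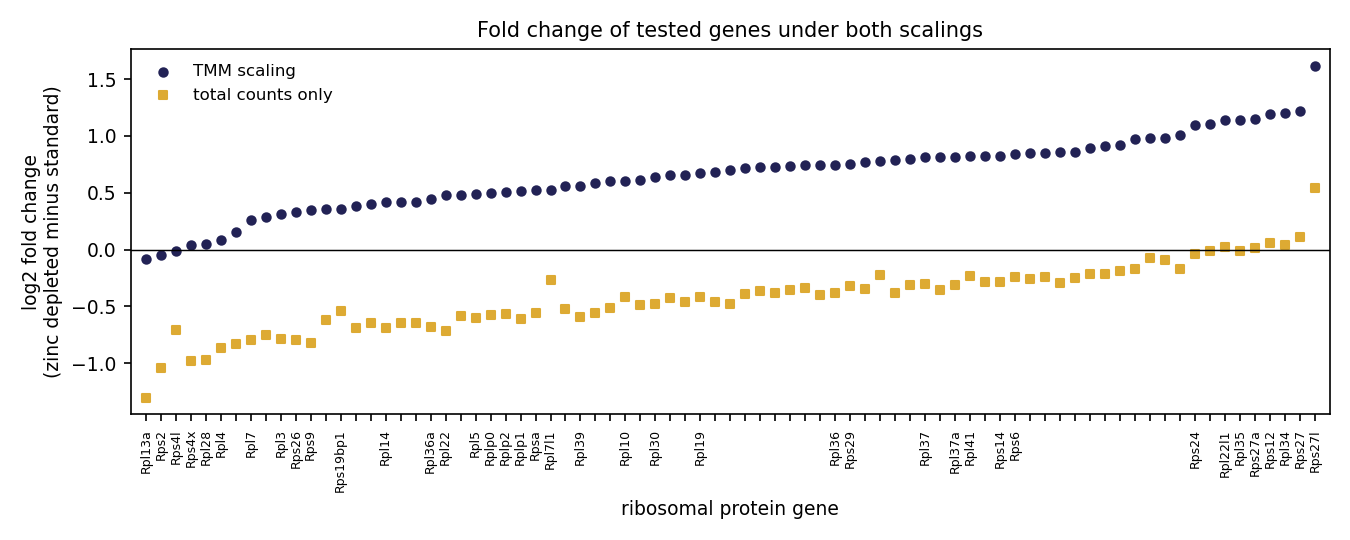
Log2 fold change (zinc depleted minus standard diet, 3 libraries each) of 79 of the tested ribosomal protein genes, ordered by the value with TMM scaling (circles), and the same with total counts only (squares), with the names of genes described in the text. With TMM 76 points lie above 0 and with total counts 73 lie below it, while the order of the genes is similar.

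The 5 genes with the largest log2 fold change with TMM were Rps27l, Rps27, Rpl34, Rps12 and Rps27a. With total counts, these 5 and Rpl22l1 were the 6 genes of the set with a positive value. Rps27l, a paralog of Rps27 known as a p53 target, had 93.7, 68.2 and 83.2 CPM on standard and 68.4, 138 and 151 CPM on zinc depleted chow. Zinc depleted replicates 2 and 3 stood above every other library, and replicate 1 within the standard range. Its log2 fold change was 1.62 ± 0.62 (SE) with an edgeR p of 0.0249, adjusted to 0.681, and 0.54 with total counts. With 1 library left out it ranged from 1.07 to 2.09 with TMM.

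Rps27, a zinc-finger protein of the small subunit, had 326, 233 and 233 CPM against 164, 341 and 350 CPM. The log2 fold change of Rps27 came to 1.22 ± 0.61 (SE), and the edgeR adjusted p to 0.681. Rpl34, of the large subunit, had 187, 119 and 129 CPM against 69.1, 184 and 195 CPM, with a log2 fold change of 1.20 ± 0.65. Rps12 had 751, 487 and 601 CPM against 320, 712 and 888 CPM, with one of 1.19 ± 0.68. Rps27a, made as a fusion with ubiquitin, had 338, 222 and 274 CPM against 136, 323 and 385 CPM, with one of 1.15 ± 0.67. In each of these 4, zinc depleted replicate 1 was the lowest of all libraries and the groups overlapped. With total counts their log2 fold changes were only 0.01 to 0.11. With 1 library left out and TMM, they ranged from 0.72 to 1.70 for Rps27, 0.63 to 1.70 for Rpl34, 0.52 to 1.69 for Rps12 and 0.50 to 1.64 for Rps27a, in each case lowest without zinc depleted replicate 3 and highest without zinc depleted replicate 1.

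Among the 5 lowest with a mean of at least 2 on the log2 CPM scale were Rpl13a, Rps2, Rps4l and Rps4x. Rps2, which lines the mRNA entry of the small subunit, had 603, 462 and 261 CPM on standard and 256, 177 and 214 CPM on zinc depleted chow, without overlap. Its log2 fold change was -0.05 ± 0.45 with TMM and -1.04 with total counts. Rps4x, the X-linked form of eS4, had 595, 422 and 278 CPM against 224, 226 and 209 CPM, again without overlap, and log2 fold changes of 0.04 ± 0.47 and -0.98. The edgeR adjusted p-values of Rps2 and Rps4x with TMM were 0.979 and 0.984. Rpl13a, with 40 to 222 counts per library, had -0.08 ± 0.60 and is uncertain for the overlap given above. Rps4l, the autosomal paralog of Rps4x, lay at 3.10 to 8.31 CPM, with -0.01 ± 0.46.

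The make-up of the set can be followed without any scaling between libraries by giving each gene as a share of the summed ribosomal protein counts of its library. Over the 78 genes with a mean of at least 10 CPM, the SD of the log2 share over the 6 libraries had a median of 0.18 and was under 0.3 in 63. Rpl19 was the steadiest at 0.996%, 1.04% and 1.03% on standard and 1.02%, 1.06% and 0.999% on zinc depleted chow. Rpl36 (0.546% to 0.608%) and Rpl30 (0.405% to 0.470%), whose yeast counterpart holds back its own RNA, came next. Rpl13a and Rps27l were among the 3 most variable, with SDs of 0.56 and 0.55.

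On this scale 5 of the 80 tested genes were higher and 7 lower on zinc depleted chow without overlap, where, measured against the same sum, 1.82% of all tested genes were higher and 2.44% lower. Genes outside the set do not follow that sum, so that these shares are no like-for-like background. The 5 higher ones were Rps27l, Rps27, Rpl22l1, Rps29 and Rps14, named here after their values were seen. Rps27l went from 0.322%, 0.322% and 0.467% of the ribosomal protein counts on standard chow to 0.580%, 0.733% and 0.756%, and Rps27 from 1.12%, 1.10% and 1.30% to 1.39%, 1.81% and 1.76%. These groups stayed apart in every library, zinc depleted replicate 1 included. The 7 lower ones, named in the same way, were Rpl5, Rpl7, Rpl13a, Rpl14, Rpl36a, Rplp1 and Rps9. Rplp1 had 2.86%, 2.50% and 2.44% against 2.37%, 2.33% and 2.33%. Rpl5 is one of the proteins that carry 5S RNA and can bind Mdm2.

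**Figure D3:**
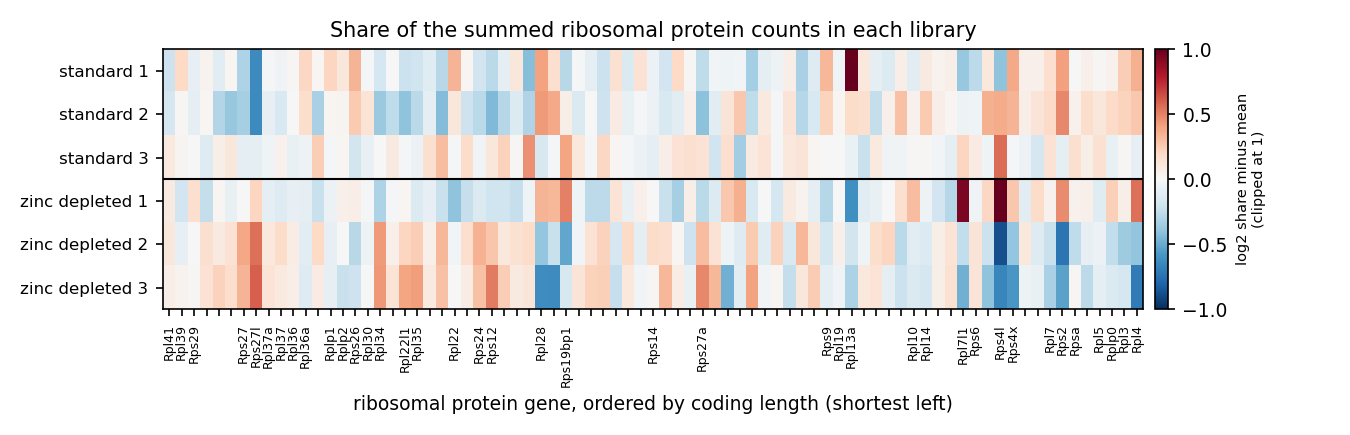
The share of the summed ribosomal protein counts taken by each of 79 tested genes (columns) in each library (rows), as log2 minus the gene's mean over the 6 libraries, with colours clipped at 1. Genes are ordered by coding length from 75 bases (left) to 1257 bases (right). Zinc depleted replicates 2 and 3 are redder for short and bluer for many long genes, whereas zinc depleted replicate 1 is closer to the standard libraries, with Rps27l as a gene that is red in all 3 zinc depleted libraries.

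Short genes of the set had larger fold changes than long ones. Across the 80 genes, the log2 fold change with TMM had a Spearman rho of -0.45 with coding length and of -0.30 with the GC content of the coding sequence (Pearson r = -0.44 with log2 length and -0.36 with GC), given as a description since the genes share the same 6 libraries. The 27 shortest (75 to 396 coding bases) had a median of 0.81, the middle 27 one of 0.75 and the 26 longest (582 to 1257 bases) one of 0.49 with TMM. With total counts these were -0.32, -0.38 and -0.59. The same was seen outside the set. Over 9487 other tested protein-coding genes rho with length was -0.33, and other genes in these 3 ranges of length had medians of 0.54, 0.40 and 0.10. The relation is therefore not particular to ribosomal protein genes.

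As a share of the summed ribosomal protein counts, the shortest 27 took 26.5%, 24.5% and 28.1% on standard and 26.1%, 30.5% and 31.0% on zinc depleted chow. The longest 26 took 43.1%, 45.2% and 39.7% against 43.3%, 36.6% and 36.4%. Zinc depleted replicate 1 lay within the standard libraries on both measures, and replicates 2 and 3 outside them. By library, the deviation of each gene's log2 share from its mean had a rho with coding length of 0.20, 0.54 and 0.00 in the standard and 0.27, -0.45 and -0.47 in the zinc depleted libraries. RNA quality was not given for these libraries, and its part was not tested.

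**Figure D4:**
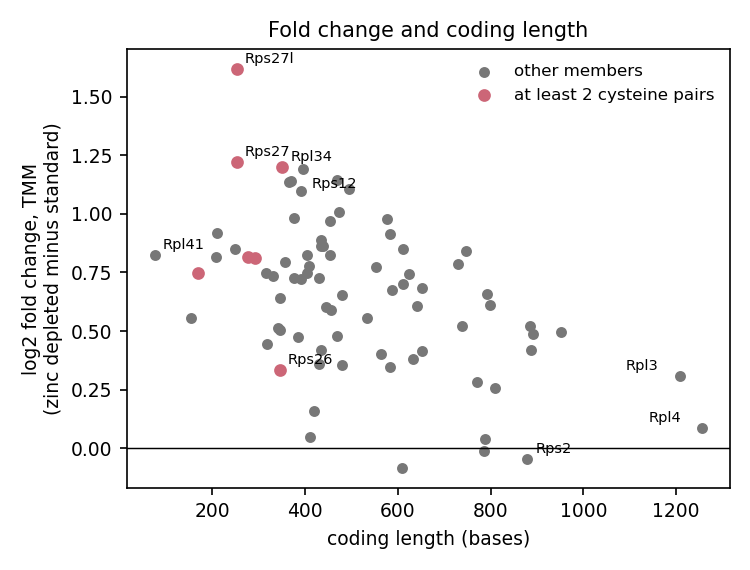
Log2 fold change with TMM scaling (zinc depleted minus standard diet) against coding length in bases for 79 tested ribosomal protein genes. Genes whose protein holds at least 2 cysteine pairs are red. Points fall from the upper left to the lower right (Spearman rho -0.45 over all 80). Rps27l is highest at 1.62, and Rpl4 and Rpl3 are the longest at 0.08 and 0.31. With total counts, not drawn here, most values lie below 0.

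Proteins with at least 2 pairs of cysteines spaced as in a zinc site (2 cysteines with any 2 residues between them) were encoded by 8 of the 90 genes (8.89%), against 13.5% of other protein-coding genes. These were Rpl34, Rpl37, Rpl37a, Rps26, Rps27, Rps27l, Rps27rt and Rps29, and all but Rps27rt were tested. They are short, with 168 to 351 coding bases in the 7 tested. The percentages were not matched for protein length. Cysteines with any other spacing were not counted, so the 8 need not be all members with a zinc site. Rpl36a, Rpl36al and Rps27a hold 1 such pair and are left out, and Rpl36a was among the genes lower in share. Together the 8 made up 6.14%, 5.87% and 6.31% of the ribosomal protein counts on standard and 6.56%, 7.47% and 7.44% on zinc depleted chow, without overlap. This sum includes Rps27l, Rps27 and Rps29, named above because their own shares did not overlap. The shares of the others overlapped, and the mean share of Rps26 was lower on zinc depleted chow (0.841% against 1.03%). The sum is therefore no trait shown by each of the 8. Within the shortest 27 genes, the 7 took 23.2%, 24.0% and 22.5% against 25.1%, 24.5% and 24.0% of the counts, so that the highest standard and the lowest zinc depleted library were nearly equal. Their median log2 fold change was 0.82 with TMM, and that of the other 20 short genes 0.77. The range ran from Rps26, at 0.33 ± 0.52 (SE) with TMM and -0.79 with total counts, to Rps27l. Rps26, which sits at the mRNA exit, had 340, 235 and 145 CPM against 114, 144 and 159 CPM. Of the 7, only Rps27l, Rps27 and Rpl34 had a log2 fold change above 1 with TMM.

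Several ribosomal proteins have a second gene, and the balance between both is free of scaling. In 4 pairs both genes were tested, and this comparison was chosen after values had been seen. Rpl22l1 counts were 18.1%, 18.5% and 26.8% of those of Rpl22 on standard and 35.4%, 31.4% and 35.0% on zinc depleted chow (21.2% ± 4.88 and 33.9% ± 2.21, SD, n = 3 each). Rpl22 protein is known to hold back Rpl22l1, and the encoded proteins were 71.1% identical. Rps27l counts were 28.7%, 29.2% and 35.8% of those of Rps27 on standard and 41.6%, 40.5% and 43.0% on zinc depleted chow (31.2% ± 3.93 and 41.7% ± 1.26), with proteins 96.4% identical. In both pairs every zinc depleted library lay above every standard library. The exact two-sided permutation test gave p = 0.1 for each, the smallest that 3 libraries against 3 allow, and 0.2 after adjustment over the 4 pairs. Both therefore miss the threshold of 0.05 in a design that cannot pass it.

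The other 2 pairs overlapped. Rpl7l1, a less alike relative of Rpl7 (44.4% identical), had 6.76%, 8.40% and 10.4% of its counts against 18.5%, 9.77% and 8.89% (exact permutation p = 0.4, adjusted 0.533). Rps4l had 1.12% to 2.85% of the counts of Rps4x on standard and 1.37% to 3.18% on zinc depleted chow (exact permutation p = 0.8, adjusted 0.8). In both genes of the Rpl22 pair the CPM of the diets overlapped. Their log2 fold changes differed from each other with both scalings, a difference that was not tested. Rpl22l1 had 35.3, 22.5 and 24.9 CPM against 16.7, 30.7 and 36.6 CPM, with log2 fold changes of 1.14 ± 0.59 (SE) with TMM (0.52 to 1.61 with 1 library left out) and 0.02 with total counts. Rpl22 had 195, 121 and 92.8 CPM against 47.2, 97.8 and 105 CPM, with 0.48 ± 0.59 and -0.71. In the pairs whose second gene was not tested (Rpl3, Rpl10, Rpl36a, Rpl39 and Rps27 with Rps27rt), that gene had at most 0.673 CPM in any library. Rps27 shares most of its transcript with other annotated copies, as only 39.6% of its 75-base stretches are its own, against 88.7% for Rps27l. In the other separated pair, 46.0% of those of Rpl22l1 are its own, against 95% for Rpl22. Rpl22l1 and Rps27l also have a lower coding GC than their partners (39.9% against 48.4%, and 46.0% against 50.8%). Rpl7l1 and Rps4l have a higher one than theirs. The part of GC and of shared stretches in these balances was not tested.

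**Figure D5:**
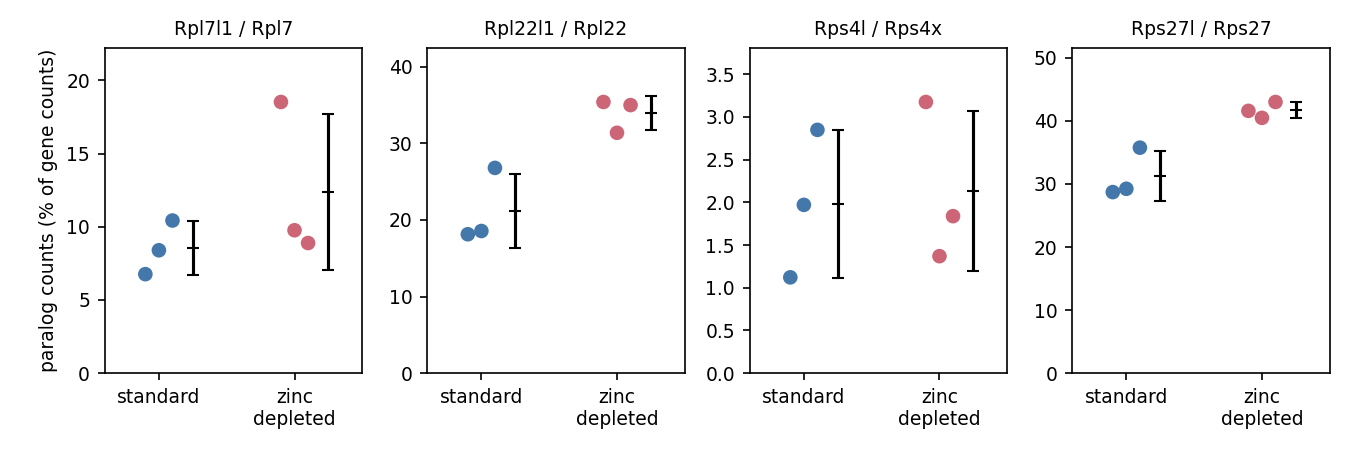
Counts of the paralog as a percent of the counts of the gene it resembles, for the 4 pairs with both genes tested. Points are libraries and bars the mean ± SD of 3. Rpl22l1 over Rpl22 and Rps27l over Rps27 are higher in every zinc depleted library than in any standard one, and the other pairs overlap.

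Genes that work with the ribosome were counted from lists, to see how far they resembled the set. None of their genes had an adjusted p under 0.05 with edgeR or DESeq2. Of 20 other genes with a 5′ pyrimidine tract, 19 were tested, with 10 positive and a median log2 fold change of 0.04 with TMM (-0.90 with total counts). Of 28 translation initiation factors all were tested, 20 positive, with a median of 0.15 (-0.44). All 41 ribosome biogenesis genes were tested, 21 positive, with a median of 0.04 (-0.55). Of 17 regulators of ribosome synthesis such as Mtor, Larp1 and Myc, 16 were tested, 5 positive, with a median of -0.19 (-0.70). Of 78 mitochondrial ribosomal protein genes 76 were tested, 52 positive, with a median of 0.39 (-0.55). The cytosolic set had the highest of these medians with both scalings, and the difference between the lists was not tested. The lists were not matched to the set for coding length, with which the fold change fell outside the set too.

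Fau encodes the ribosomal protein eS30 as a fusion with a ubiquitin-like protein, and its symbol lies outside the rule. Fau had 184, 159 and 118 CPM on standard and 81.3, 145 and 141 CPM on zinc depleted chow, with log2 fold changes of 0.78 ± 0.55 (SE) with TMM and -0.33 with total counts. Rack1, a scaffold on the small subunit, had 1111, 874 and 597 CPM against 418, 709 and 731 CPM, with 0.66 ± 0.58 and -0.48. These values lay within the range of the set. The elongation factors had lower log2 fold changes than Fau and Rack1 with both scalings. Eef1a1, which brings tRNA to the ribosome, had 4337, 3239 and 1982 CPM against 1857, 1659 and 1607 CPM, without overlap, with 0.10 ± 0.52 and -0.90. Eef2, the translocase, had 2102, 1753 and 582 CPM against 1123, 332 and 231 CPM, with -0.76 ± 0.46 and -1.40. Neither gene passed the test (edgeR adjusted p = 0.959 and 0.684), and whether they differ from the set was not tested.

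Tpt1, a tract mRNA of high level, had 1008, 832 and 778 CPM on standard and 599, 849 and 765 CPM on zinc depleted chow, which overlapped as in most of the set. Pabpc1, the poly(A) binding protein, had 710, 437 and 188 CPM against 630, 107 and 66.7 CPM. Here zinc depleted replicate 1 lay far above replicates 2 and 3, the reverse of its place in Rplp0 or Rps12. Ncl, the nucleolar protein nucleolin, had the same order with 181, 124 and 79.8 CPM against 121, 31.8 and 21.8 CPM. Npm1, another nucleolar protein, had 235, 108 and 77.0 CPM against 56.2, 43.5 and 48.9 CPM, without overlap. Myc, an activator of ribosome synthesis, had 47.8, 13.0 and 22.5 CPM against 28.2, 11.2 and 6.65 CPM. None of these 5 passed the test with TMM scaling (edgeR adjusted p = 0.693 to 0.874).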

How the data were processed

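The deposited table holds, for each Ensembl gene identifier, the raw counts of reads in each of the 6 libraries, made from single-end reads of total RNA sequenced on an Element AVITI instrument. Per the submitters' processing notes, Trimmomatic 0.39, STAR 2.7.10a, FastQC and DESeq2 were used on mm39, and the study's methods name GRCm39 with GENCODE annotation and sorts of individual mice. The counting program, its use of strand and the fate of reads with several matches: not given in the sources used here.

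Symbols, positions and coding sequences were taken from GENCODE M39 (GRCm39) by identifier, where 54749 of 55414 identifiers matched. Lengths come from the shortest CCDS transcript of the best support level. Cysteine pairs and identities were computed from translated coding sequences. Promoters are from a RefSeq table of GRCm38.p6 and were placed on GRCm39 by an exact match of all 300 bases. The 75-base stretches were compared with all M39 transcripts.

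Diets were compared with the edgeR 4.0.16 quasi-likelihood test (R 4.3.3, TMM, filterByExpr, two-sided, Benjamini-Hochberg over 9749 genes, threshold 0.05, prior count 2, SE as the absolute log2 fold change over the square root of F). CPM values use total counts unless stated. P-values measure the spread between these libraries. Alternatives were DESeq2 1.42.0, limma-voom (limma 3.58.1), RLE factors, total counts, scaling without Paneth cell products, no filter, a replicate block and leaving out each library. The members, lists and tests were chosen with earlier results of these data known. The genes named were the 5 highest per kilobase, the 5 largest and 5 smallest fold changes at a mean log2 CPM of at least 2, paralogs, stalk proteins, Rpsa, genes with cysteine pairs, the 3 most and 3 least variable shares, and set translation genes. Other names are marked, and some genes that this rule takes are not reported here. Intervals and the limit of 3 counts cover counting error only.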

Additional observations from a re-analysis of the deposited data

How the results depend on the processing

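No ribosomal protein gene was called under any of the 13 alternatives. All genes called numbered 0 with edgeR, 9 with DESeq2, 76 without the filter and 0 to 28 with 1 library left out, where the 28 came without standard replicate 3. The median log2 fold change of the set was 0.69, turned to -0.41 with total counts, and ranged from 0.22 (without zinc depleted replicate 3) to 1.16 (without zinc depleted replicate 1) with 1 library left out. The difference in summed share was -0.588 percentage points, 1.89 in counts outside Paneth cell products and -0.833 to -0.267 with 1 library left out. With total counts the median over all tested genes was -0.67. These log2 fold changes turned with that scaling: Rps4x to -0.98, Rpl22 -0.71, Rplp0 -0.57, Rpsa -0.56, Rps26 -0.79, Fau -0.33, Rack1 -0.48 and Eef1a1 -0.90. Rps4l turned to 0.016 with RLE factors, 0.026 with the replicate block, 0.025 with limma-voom and 0.0062 with DESeq2, and Rps4x to -0.0027 without the filter, -0.082 with the block and -0.032 with limma-voom. Eef1a1 turned to -0.0085 with the block. With 1 library left out, log2 fold changes ran from -0.58 to 0.42 for Rpl13a, -0.44 to 0.25 for Rps2, -0.27 to 0.40 for Rps4l, -0.26 to 0.39 for Rps4x, -0.062 to 0.96 for Rpl22, -0.073 to 0.95 for Rpsa, -0.14 to 0.75 for Rps26 and -0.21 to 0.42 for Eef1a1. The cause of these changes was not tested. The rho with coding length, an alternative added after the data were seen, ran from -0.49 to -0.39 with 1 library left out. Replicate numbers are not stated to pair the samples. Correlations of deviations were 0.15, -0.06 and 0.25 for equal numbers and -0.28 to 0.25 for unequal ones. As deviations from means of 3 libraries, they cannot decide whether samples were paired. Under the replicate block the median was 0.43 with 0 calls. Counts were no limit for most of the set, while 10 genes were too low to test.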
